A study of Mus musculus with 2 samples.

Results

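The genes described here encode the costimulatory receptor OX40 (Tnfrsf4), its ligand OX40L (Tnfsf4), the adaptors Traf1 to Traf6, and the TRAF-associated proteins Traf3ip2 and Traf3ip3. They were chosen by name, as every probe set that the platform annotation pairs with 1 of these 10 symbols alone. That gave 13 probe sets for 9 of the 10 genes, out of 28898 probe sets with a single symbol and 17097 genes in all. Traf3 was not analysed here, because no probe set is paired with it in the annotation used.

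Transcripts were hybridised to 2 Affymetrix arrays of the type HT MG-430 PM. The source was CD4 T cells from C57/Bl6 mice aged 6 weeks that carried the Foxp3-eGFP reporter, which marks regulatory T cells. Naive CD62L-high, CD44-low, Foxp3-negative cells were sorted, stimulated over 48 hours through soluble anti-CD3 antibody, and then re-sorted as living CD4 T cells. The antigen-presenting cells (APC) were CD3-depleted splenocytes treated with mitomycin C at 50 ug/ml to stop division, from wild type (Wt) B6 mice for 1 array and from OX40L-transgenic (OX40L-Tg) mice for the other. The promoter of the transgene, the number of mice and any pooling are not stated in the labels. The labels give the transgene for the APC only, not for the sorted T cells. With 1 array per condition there is no replicate error, no test and no p-value, and every difference below compares these 2 samples.

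OX40 is a TNF receptor superfamily member that activated T cells place on their surface. When OX40L clusters it, the cytoplasmic tail recruits TRAF2, TRAF3 and TRAF5, which connect it to NF-kB and kinase pathways and prolong T cell survival. TRAF3 works with TRAF2 and the cellular inhibitor of apoptosis proteins to keep the kinase NIK low, and recruitment to the receptor releases this brake on noncanonical NF-kB. TRAF1, which lacks the RING domain of the other TRAF proteins, joins TRAF2 in mixed complexes and is a known target of NF-kB.

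Values are probe set intensities in linear units, and a difference is the log2 value with OX40L-Tg APC less that with Wt APC. A gene with several probe sets takes the value of the one with the highest mean. Intensities of different probe sets depend on their probes, so levels are compared between arrays and never between genes. Background was set at the 95th percentile of the values of 73 genes known from other organs, which was 29.4 units for Wt APC and 35.9 units for OX40L-Tg APC. All 9 genes with a value were above it on both arrays, as were, on at least 1 array, 8599 of the 17097 genes, which serve as the comparison below.

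The 9 genes with a value did not move as a block. Traf1 and Traf4 were 1.48-fold and 1.33-fold higher with OX40L-Tg APC, while Traf5, Traf3ip2 and Traf3ip3 were 1.35-fold, 1.34-fold and 1.48-fold lower. Tnfrsf4, Traf2 and Traf6 were higher, and Tnfsf4 lower, by 1.20-fold or less. A size threshold of at least 25% higher, or at least 20% lower, which is the same ratio in the other direction, was used to count. In all, 5 of the 9 genes were higher and 4 lower, with a median difference of 0.15 against 0.02 over all genes above background, of which 54.4% were higher. Of the 9, 2 were at least 25% higher, against 10.3% of all genes, and 3 were at least 20% lower, against 9.14%. In either direction 5 of 9 passed this size, against 19.5% of all genes, and 0 of 9 passed 1.5-fold, against 7.73%. The median size of the difference was 0.41 for these genes and 0.13 for all genes above background. These shares describe 9 genes chosen with earlier results of these data known.

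**Figure D1:**
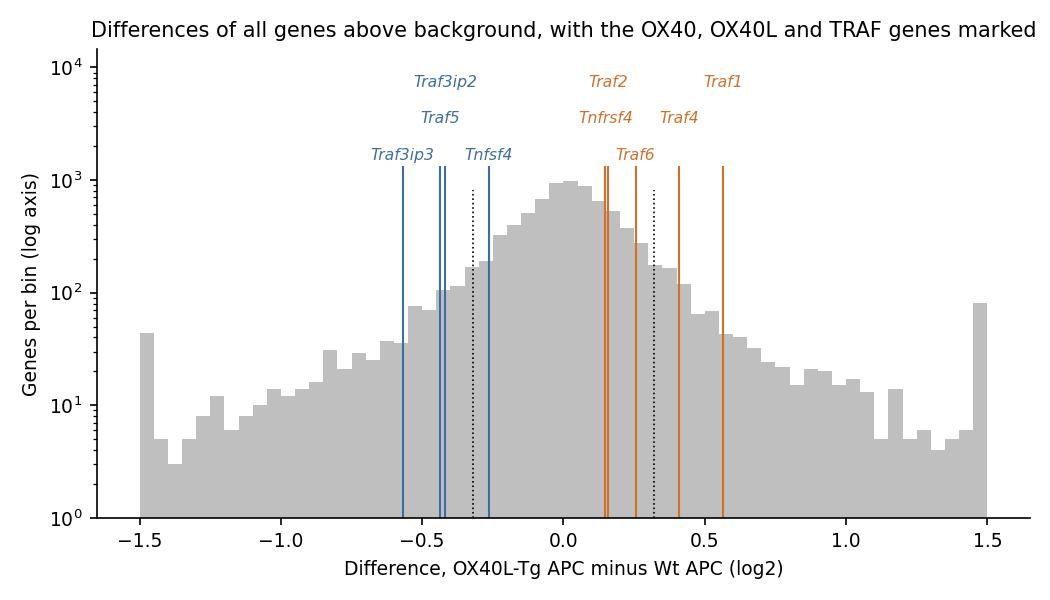
Histogram of the difference (OX40L-Tg APC minus Wt APC, log2) of the 8599 genes above background, with the number of genes per bin on a log axis, lines for the 9 genes and dotted lines at 25% higher and 20% lower. The 115 genes beyond a size of 1.5 are counted in the end bins; Traf3ip3, Traf5, Traf3ip2 and Tnfsf4 lie left of 0 and the other 5 genes right of it, none in the tails past 1.5-fold.

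The stretches of 250 bases before the annotated start are shown for the 4 genes that passed the size threshold and have an entry in the RefSeq promoter table of build GRCm38.p6, so that those that read higher and lower can be set side by side. They lie at chr2:34961773-34962022 (Traf1), chr11:78165551-78165800 (Traf4), chr1:192092600-192092849 (Traf5) and chr1:193201547-193201796 (Traf3ip3), all on the minus strand, and are written 5′ to 3′ along the gene. Capitals mark the GC box GGGCGG on either strand.
Traf1: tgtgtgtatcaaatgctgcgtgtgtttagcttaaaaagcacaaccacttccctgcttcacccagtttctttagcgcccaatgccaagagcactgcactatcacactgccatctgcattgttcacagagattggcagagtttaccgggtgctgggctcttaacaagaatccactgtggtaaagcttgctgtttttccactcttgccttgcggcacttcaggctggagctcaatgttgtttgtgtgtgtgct
Traf4: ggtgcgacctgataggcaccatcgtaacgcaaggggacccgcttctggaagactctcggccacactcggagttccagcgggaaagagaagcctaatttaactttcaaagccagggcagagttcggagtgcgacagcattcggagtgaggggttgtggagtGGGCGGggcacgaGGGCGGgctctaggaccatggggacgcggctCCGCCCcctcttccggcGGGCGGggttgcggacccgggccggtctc
Traf5: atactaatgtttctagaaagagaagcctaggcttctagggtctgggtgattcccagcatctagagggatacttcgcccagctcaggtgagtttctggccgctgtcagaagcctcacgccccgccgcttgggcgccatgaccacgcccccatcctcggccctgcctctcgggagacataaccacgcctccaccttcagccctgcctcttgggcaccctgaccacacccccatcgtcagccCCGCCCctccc
Traf3ip3: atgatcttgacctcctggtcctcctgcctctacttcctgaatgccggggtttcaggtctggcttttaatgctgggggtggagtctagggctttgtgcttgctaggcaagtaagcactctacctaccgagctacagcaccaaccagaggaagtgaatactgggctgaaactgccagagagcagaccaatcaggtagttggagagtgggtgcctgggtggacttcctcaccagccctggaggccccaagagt
The Traf4 window holds 4 GC boxes, the Traf5 window 1, and those of Traf1 and Traf3ip3 hold 0. The GC box, the binding element of Sp1 family factors, occurs in 32.7% of all 32851 windows of this length. CpG dinucleotides numbered 4 for Traf1, 22 for Traf4, 12 for Traf5 and 2 for Traf3ip3, around a median of 6 over all windows. The pair that read higher thus had 1 window below and 1 above that median, and so did the pair that read lower. Neither TATAAA, present in 12.4% of all windows, nor the NF-kB consensus decamer, present in 7.25%, was found on either strand in these 4. Among the 8 matched windows the decamer was found only in that of Traf3. A match in such a window is a description of its letters, and its absence says nothing of binding elsewhere.

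Tnfrsf4, the receptor itself, read 5650.0 units with wild type APC and 6262 units with transgenic APC. Its difference of 0.15 is a 1.11-fold higher value with OX40L-Tg APC. Of all genes above background, 25.2% had at least as large a positive difference. Transcript of the receptor was therefore well above background in both cultures, and close to equal. Tnfrsf18, which encodes the related costimulator GITR, is the next protein-coding gene after Tnfrsf4 on chromosome 4. It read 4228 and 4825 units, a difference of 0.19, and the gene on the other side, Sdf4, differed by 0.02.

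Tnfsf4, the ligand, read 154 units when the APC were wild type and 128 units when they were transgenic, 1.20-fold lower with a difference of -0.26. A negative difference of at least this size was seen in 11.7% of genes above background. Tnfsf4 signal was thus not higher among T cells sorted from the culture with transgenic APC. The labels do not say whether this probe set reads the transgene's transcript. Tnfsf4 is known from activated B cells and dendritic cells as well as T cells, and marker genes of these cells went both ways on these arrays. All 6 MHC class II genes above background were higher, with a median of 0.46. Of 6 B cell genes, 5 were higher, with a median of 0.35. Over all genes above background, 54.4% were higher. Of the 2 dendritic cell genes above background, Flt3 differed by -0.09 and Batf3, which activated T cells also use, by 2.59. Of 8 T cell genes, 7 were lower, with a median of -0.24. H2-Ab1, an MHC class II chain, read 456 and 535 units. In such bulk samples fewer cells of a type and less RNA per cell cannot be told apart, and the part of remaining APC in the Tnfsf4 signal was not tested.

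**Figure D2:**
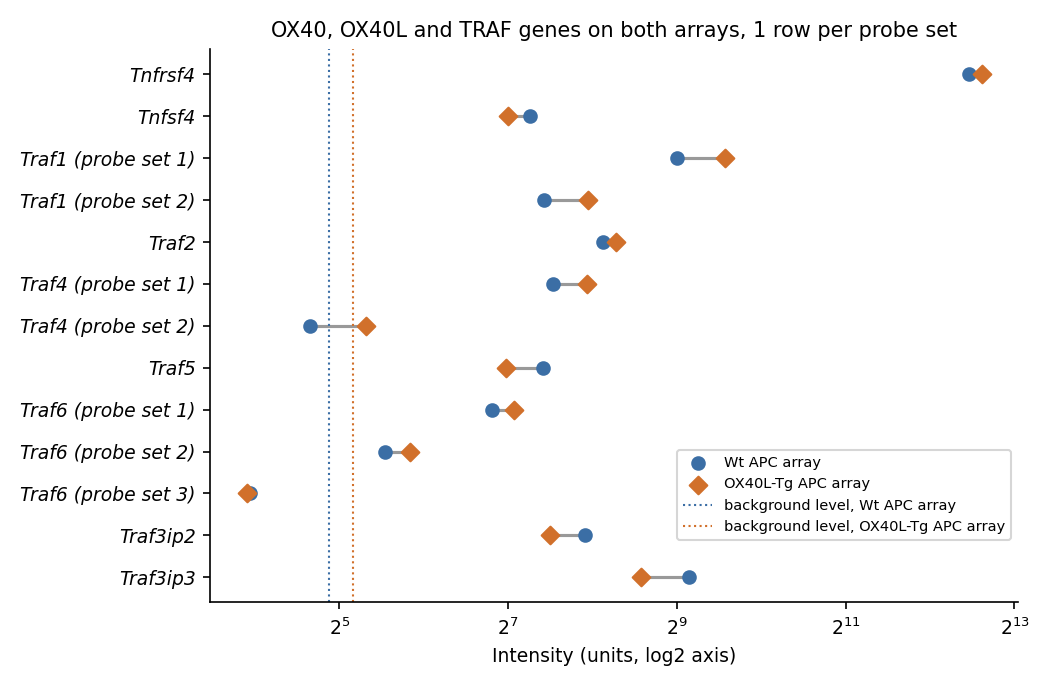
Intensity (units, log2 axis) of the 13 probe sets of the 9 genes, with Wt APC as circles and OX40L-Tg APC as diamonds, and the background level of each array dotted. Both Traf1 probe sets move right by a similar distance, Traf5, Traf3ip2 and Traf3ip3 move left, and the third Traf6 probe set lies below background on both arrays.

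Traf1, the NF-kB-induced adaptor that pairs with TRAF2, read 513 units with Wt APC in its brighter probe set, and 759 units with OX40L-Tg APC. Its difference of 0.56 was the largest positive one of the set, and 4.34% of genes above background were at least as far in this direction. The second probe set, which is built on another transcript sequence, read 173 and 247 units, a difference of 0.52. The probe sets thus differed from each other by 0.05, against a median of 0.10 over the 2225 genes with 2 probe sets above background. That closeness covers probe scatter within this pair of samples and not the spread between cultures.

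A group of array controls moved by as much as Traf1. The poly-A controls are bacterial transcripts added to RNA before labelling, and the 9 of their 12 probe sets above background were all higher with OX40L-Tg APC, by 0.33 to 0.74. For 5 of these 9, the difference was at least that of Traf1. The 9 prelabelled hybridization controls differed by -0.03 to 0.21, with a median of 0.05, and the Actb and Gapdh control probe sets by -0.04 to 0.03. How much control RNA each sample received is not stated in the labels, and the part of this shift in the differences was not tested.

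Traf2, the main adaptor of OX40 signalling to canonical NF-kB, read 278 and 310 units, a difference of 0.16. A positive difference at least as large was seen in 24.0% of genes above background. Traf5, a close relative of TRAF3 that also binds the OX40 tail, read 170.0 units with Wt APC, against 126 units with OX40L-Tg APC. Its difference of -0.44 was matched or passed by 5.97% of genes in this direction, and it rests on 1 probe set. These 2 adaptors of the receptor thus read in opposite directions, 0.59 apart. Traf1 stood 1.00 above Traf5 in difference, which is a 2.00-fold change of their ratio, and 0.41 above Traf2.

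Traf4, an adaptor first found in breast cancer and known more from epithelial and neural development than from TNF receptor signalling, read 185 and 246 units, a difference of 0.41. Positive differences of this size or more made up 7.27% of genes above background. Its dimmer probe set read 25.2 units with Wt APC, below background. With OX40L-Tg APC it read 39.9 units, just above that array's level of 35.9 units, so that no fold is given for it. Both probe sets therefore read higher with OX40L-Tg APC, 1 of them close to background.

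Traf6, the ubiquitin ligase of the interleukin-1 and Toll-like receptor pathways, read 112 and 134 units in its brightest probe set, a difference of 0.26. A second probe set read 46.8 and 57.3 units, a difference of 0.29, and lay within 0.04 of the first. The third was below background on both arrays, with a difference of -0.04. In this direction 14.1% of genes above background were at least as far as Traf6. Genes that work with TRAF6, such as the IRAK kinases, Myd88 and the TAK1 complex, differed little in the brightest probe set of each. Other probe sets reached farther. Map3k7, the gene of TAK1, differed by -0.02 in its brightest, with 5 probe sets from -0.50 to -0.0044, and Irak1 by 0.06, with 0.20 in its other one. Of 10 above background, 0 passed the size threshold in either direction, against 19.5% of all genes, and their median difference was 0.02, against 0.02 for all genes. Tab3 and Tab2, which tie TRAF6 to the kinase TAK1, differed by -0.25 and 0.22, the latter with 0.06 in its other probe set, and Ecsit by 0.23.

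Traf3ip3, also called T3JAM, a membrane adaptor of lymphocytes that binds TRAF3, read 567 units with Wt APC, against 382 units with OX40L-Tg APC. Its difference of -0.57 was the largest negative one of the set, and 3.76% of genes above background were at least as far below 0. Most T cell marker genes were lower on the same array. Of 8 above background, 7 were lower, with a median of -0.24, while 54.4% of all genes were higher. These 8 ran from -0.67 (Cd3e) to 0.09 (Cd2), with Cd5 at -0.01 and Lat at -0.15, and Cd4 differed by -0.30. The part of T cell content in the Traf3ip3 value was not tested. Among its neighbours on chromosome 1, Hsd11b1, which reactivates glucocorticoids, differed by -0.92 and A130010J15Rik by -0.02.

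Traf3ip2, which encodes Act1, the adaptor of the interleukin-17 receptor, read 242 and 181 units, a difference of -0.42. In this direction 6.33% of genes above background were at least as far. Fyn, a Src family kinase of T cells and the neighbour of Traf3ip2 on chromosome 10, differed by -0.67, while Rev3l on its other side differed by 0.17. The genes around Act1 showed no common direction. Of 9 above background, 4 were higher and 5 lower, with a median of -0.02, while 54.4% of all genes were higher. Ikbke, an IkB kinase-related gene that phosphorylates Act1, read 361 and 216 units, Arid5a, a protein that stabilises cytokine mRNA, read 402 and 624 units, and Nfkbiz, an atypical IkB protein, differed by -0.37 with probe sets from -1.05 to 0.07. The receptor chain gene Il17ra differed by -0.27. Il17re, just above background, read 37.9 and 36.8 units, whereas Il17rb, Il17rc and Il17rd were below background on both arrays.

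Around these adaptors, 10 lists of pathway genes were examined, with 98 genes above background. Of these, 23 were at least 25% higher and 13 at least 20% lower, which is read against the shares of 10.3% and 9.14% of all genes given above. The median over the 98 was 0.05. The lists were chosen with earlier results of these data known, and counts and medians are descriptions without a test.

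**Figure D3:**
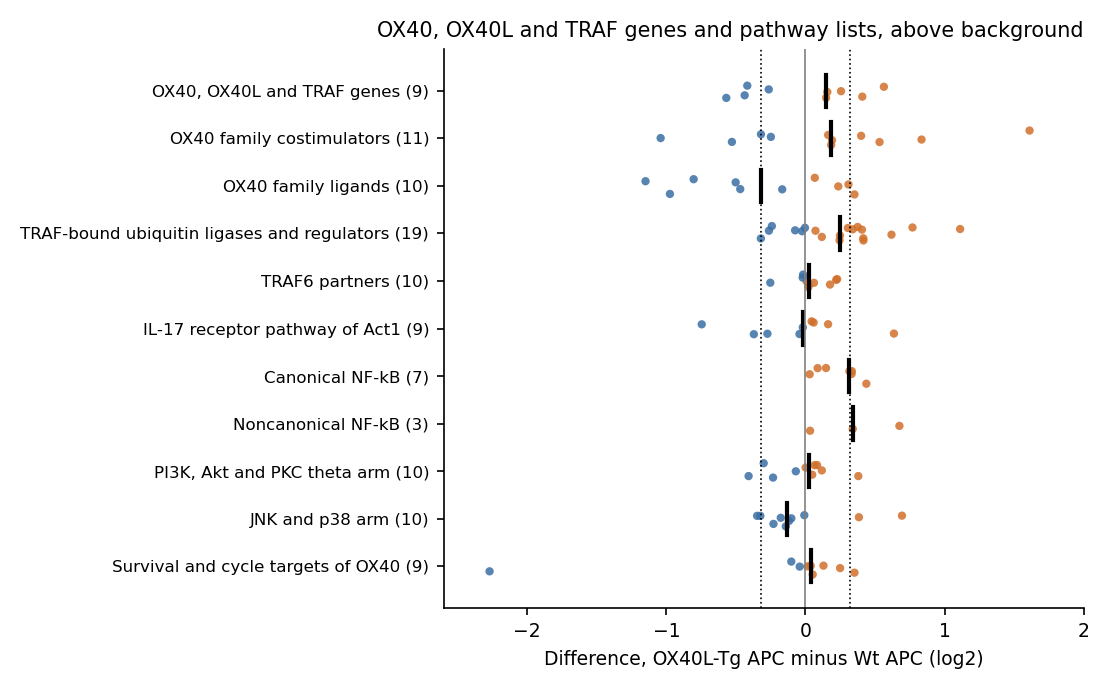
Differences (OX40L-Tg APC minus Wt APC, log2) of the genes above background on each list, 1 point per gene, with the median as a bar, dotted lines at 25% higher and 20% lower, and the number of genes in brackets. The 7 canonical NF-kB genes all lie right of 0, OX40 family ligands have the lowest median at -0.32, and Bcl2l11 is the point farthest left.

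The ubiquitin ligases and regulators bound to TRAF proteins were higher in 13 of 19 genes, against 54.4% of all genes, with a median of 0.25. Of these 19, 8 were at least 25% higher and 0 at least 20% lower, against 10.3% and 9.14% of all genes. Trafd1, among those 8, differed by 0.34 in its brighter probe set and by -0.0066 in the other. When each gene took the median of its probe sets, the list median was 0.17. Tnfaip3, the ubiquitin-editing enzyme A20 that restrains NF-kB, read 598 and 1291 units and was 2.16-fold higher. Peli1, a ubiquitin ligase, was 1.70-fold higher, with 4 probe sets from 0.55 to 0.80, and Tnip2, a partner of A20, was 1.53-fold higher. The inhibitor of apoptosis genes Birc2 and Birc3, whose proteins TRAF2 carries to the receptor, differed by 0.25 and 0.42. The other probe set of Birc3 differed by 0.26. Tradd, Cyld and Tank were lower, by less than 20% each.

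NF-kB subunits, kinases and inhibitors were higher in all 7 canonical genes above background, against 54.4% of all genes, with a median of 0.32. Of these 7, 3 were at least 25% higher, against 10.3% of all genes. The direction is that of the brightest probe set of each gene. Ikbkg differed by 0.15 in its brightest, with 6 probe sets from -0.19 to 0.15, and Ikbkb differed by 0.03. The canonical list held 8 genes, of which 7 had a value. Without probe sets marked as shared between transcripts the median was 0.15, since Nfkbib, an inhibitor, differed by 0.33 in a shared probe set and by 0.02 in its other one. Nfkbie, another inhibitor, differed by 0.44 and Rel, a subunit of lymphocytes, by 0.33. Of the noncanonical genes, Nfkb2 read 338 and 539 units, 1.60-fold higher, Relb differed by 0.03, and Map3k14, which encodes NIK, differed by 0.34 in 1 probe set and by 0.02 in the other. Their median of 0.34 was 0.18 when each gene took the median of its probe sets. B cell and MHC class II genes, from cells that also use these pathways, were higher in the same comparison by the medians given above, and their part was not tested.

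Receptors related to OX40 went both ways. Of 11 above background, 7 were higher and 4 lower, with a median of 0.18, and 54.4% of all genes were higher. Cd27, a costimulator of naive T cells that also signals through TRAF2 and TRAF5, read 783 and 381 units, 2.06-fold lower. Cd40, a receptor of B cells and other APC, read 90.0 and 160 units, and its probe sets differed between the arrays by 0.83 and 0.87. The 6 B cell genes above background differed by -0.15 (Blk) to 1.00 (Fcer2a), with a median of 0.35, and their part in the Cd40 value was not tested. Tnfrsf8, which encodes CD30, was below background with Wt APC and read 36.6 units, just above it, with OX40L-Tg APC, so that no fold is given. The related ligands were lower in 6 of 10 genes, with a median of -0.32, while 54.4% of all genes were higher. Of these 10, 5 were at least 20% lower and 1 at least 25% higher, against 9.14% and 10.3% of all genes. Tnfsf11, which encodes RANKL, differed by -0.97 and -0.57 in its probe sets, Ltb, a lymphotoxin chain, differed by -0.80, and Tnfsf10, the TRAIL gene, was lower by at least 1.62-fold against background. Tnfsf4, with its difference of -0.26, stood close to the median of these ligands.

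Kinase arms downstream of the receptor held genes in both directions. In the PI3K, Akt and PKC theta arm 6 of 10 genes were higher, against 54.4% of all genes, with a median of 0.02. Pik3cd and Prkcq, kinases of T cell costimulation, differed by -0.41 and -0.30, and Malt1, a protease that activates NF-kB, by 0.38, with other probe sets up to 1.21. In the JNK and p38 arm 8 of 10 genes were lower, with a median of -0.13, while 54.4% of all genes were higher. Of these 10, 2 were at least 25% higher and 2 at least 20% lower, against 10.3% and 9.14% of all genes. Map3k8, an NF-kB-linked kinase, was 1.62-fold higher, Map2k3 differed by 0.38 and Map2k6 by -0.35. Among survival and cycle genes tied to OX40, 6 of 9 were higher and 3 lower, against 54.4% of all genes higher, with a median of 0.04. Of these 9, 1 was at least 25% higher and 1 at least 20% lower, close to the 10.3% and 9.14% of all genes. Bcl2 differed by 0.01, Mcl1 by 0.13 and Birc5 by -0.10. Bcl2l11, the proapoptotic gene of Bim, was 4.83-fold lower at 338 units, Bcl2l1, an antiapoptotic gene, differed by 0.35 with probe sets from -0.10 to 0.47, and Ccnd2, a cyclin of cell cycle entry, by 0.25 with probe sets from 0.10 to 0.33.

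The arrays had medians of 14.7 units each and correlated with r = 0.993 over 45141 probe sets. Of the defining markers of CD4 T cells, Cd4 read 1410 and 1143 units, and Cd3e 1452 and 912 units. The labels' extraction protocol names adipose tissue, but Adipoq, Fabp4 and Lep were below background on both arrays. Macrophage markers, with Csf1r among them, were below it in 8 of 8 genes, as were the dendritic cell marker Itgax, the NK cell marker Ncr1 and Cd8a. Other genes of those lists were above it. Cd8b1 read 191 and 239 units, Flt3, of dendritic cells and progenitors, 46.1 and 43.3 units, and Eomes, a factor of NK and cytotoxic T cells, 221 and 65.1 units. B cell transcripts were present, with Cd79a at 116 and 135 units, but Pax5, Cr2 and Ebf1 were below background on both arrays. The summed level of 9 B cell genes, those below background included, was 982 and 1512 units, of which Fcer2a alone gave 259 and 520 units. The summed level of 7 MHC class II genes, with Ciita below background among them, was 2700 and 3605 units. For 8 T cell genes it was 19677 and 16966 units. Such sums weigh each gene by the brightness of its probes, so they are compared between arrays and not between lists. Hba-a1, an erythrocyte gene, read 1161 and 207 units, and Batf3, a factor of both dendritic and activated T cells, 95.1 and 574 units. The part of these cells in the differences of Traf1, Traf4 and the other TRAF genes was not tested.

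**Figure D4:**
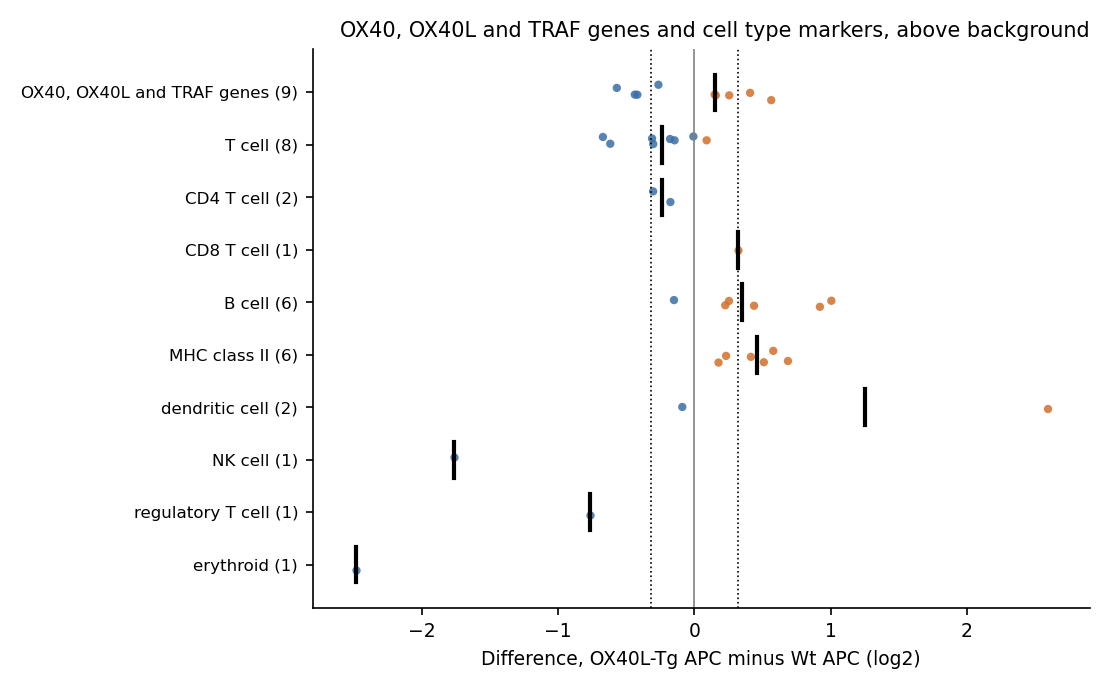
Differences (OX40L-Tg APC minus Wt APC, log2) of cell type markers above background, 1 point per gene, with the median as a bar and the number of genes in brackets, under the 9 OX40, OX40L and TRAF genes. T cell genes have a median of -0.24, B cell genes of 0.35 and MHC class II genes of 0.46; macrophage and adipocyte markers had no gene above background and are not drawn.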

How the data were processed

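The authors deposited 1 linear intensity per probe set and array, from 2 arrays processed with RMA, per the submitters' processing notes, with no version stated. RMA corrects background, equalises array distributions and summarises each set's probes, so a change in total RNA leaves no trace and low values are drawn together. Log2 was taken first. Of 45141 probe sets, 28898 had 1 gene symbol, 551 had several and 15692 had no entry and stay unnamed. The RefSeq gene table of GRCm38.p6 held 16936 of the 17097 genes and was used for gene order.

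There is 1 array per group, so no test was made and the number of arrays limits the precision. A value at least 25% higher, or at least 20% lower, and 1.5-fold served as descriptive sizes. The genes and lists were chosen with earlier results of these data known. The text names all 9 genes with a value, defining cell type markers, and the 3 largest differences on each of 10 pathway lists among genes above background. Other list genes, neighbours and array controls were named after their values were seen. Promoter sequences are from the RefSeq table. Calculations used Python 3.11.15, numpy 2.4.6, pandas 2.3.3, statsmodels 0.14.6 and matplotlib 3.10.9. They were run on simulated data with planted differences larger than those of the 9 genes, so differences of the size reported here were not tried. The 6 alternatives were a pseudocount of 10 units, the median over probe sets, lowess correction (span 0.3), median centring, a background filter and leaving out shared probe sets.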

Additional observations from a re-analysis of the deposited data

How the results depend on the processing

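The 9 genes kept their direction under the 6 alternatives, most of which could hardly turn it. For these genes the background filter and leaving out shared probe sets returned the same values, a pseudocount cannot change a sign, median centring shifted every gene by -0.0058, and the median over probe sets can move only Traf1, Traf4 and Traf6. Traf1 ranged from 0.53 to 0.56, Traf4 from 0.38 to 0.54, Traf5 from -0.47 to -0.41 and Traf3ip3 from -0.60 to -0.56. The counts of 2 genes at least 25% higher and 3 at least 20% lower were the same in each, and the median ranged from 0.13 to 0.15. Over the pathway lists, the number at least 25% higher ranged from 19 to 23 and that at least 20% lower from 11 to 16. Among single genes and lists, 10 of 293 values moved by more than 0.15, the pooled SD of differences among probe sets of 1 gene. The medians of 3 lists close to 0 turned sign, that of the IL-17 receptor pathway from -0.02 to 0.05 with the median over probe sets, and with lowess those of the PI3K, Akt and PKC theta arm from 0.02 to -0.0045 and of the TRAF6 partners from 0.02 to -0.0032. No paired analysis was possible because each group has 1 array, and for the same reason no replicate could be left out. All alternatives start from the same normalized values, so none bears on the normalization itself or on the spread between cultures. Dim probe sets, such as the third of Traf6, limit what can be read.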
